A study of Homo sapiens with 2 samples.

Results

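Enzymes of the prostaglandin and leukotriene pathways were examined in H1299, an established line of human lung carcinoma of the non-small cell type, after transient transfection with an EGR1 expression plasmid. The members were all probe sets annotated to PTGS1, PTGS2, PTGES, PTGES2, PTGES3, HPGD, ALOX5 or PLA2G4A, chosen by gene name with earlier results of these data known. They comprised 8 of 18132 genes represented and 27 of 49395 probe sets. One group was H1299 cells given pcDNA-EGR1 with a cationic lipid reagent, and the other was H1299 cells given the empty pcDNA3.1 plasmid in the same way. RNA was taken 48 hours later, and each group held 1 Affymetrix array. The study sought genes that EGR1 regulates in lung cancer cells. The share of cells that took up a plasmid is not given in the sources used here, nor is whether RNA was pooled from several cultures. Each array read bulk RNA, so that less RNA per cell and fewer expressing cells cannot be told apart.

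Eicosanoids are signalling lipids made from arachidonic acid. The cytosolic phospholipase encoded by PLA2G4A frees arachidonic acid from membranes, the cyclooxygenases (PTGS1 and PTGS2) turn it into prostaglandin H, and terminal synthases such as PTGES convert that into prostaglandin E. The dehydrogenase HPGD inactivates prostaglandins, and the lipoxygenase ALOX5 opens the separate branch that leads to leukotrienes, chiefly in leukocytes. EGR1 is a zinc-finger transcription factor that binds GC-rich DNA, and the promoters of PTGES and ALOX5 are known to hold sites for it.

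Promoter windows of 300 bases (250 before to 50 after an annotated start, RefSeq, GRCh38.p14) were available for 7 of the 8 members. None was available for ALOX5, so its promoter was not searched. The EGR1 consensus was searched as GCGNGGGCG and in its strict form GCGTGGGCG, on both strands. PTGES and PTGES2 were the members with a match, 1 each, and both matches were to the strict form. The other 9 of the 11 member windows had none. Of all 35116 windows in the RefSeq reference used, 9.43% held GCGNGGGCG and 0.795% held GCGTGGGCG. By gene the shares were 11.2% and 0.96% of 27305 genes with a window. Both windows are shown because they hold the members' matches to the EGR1 consensus, which are in capitals. The PTGES window lies at chr9:129752993-129753292 on the minus strand, and its match begins 82 bases upstream of the start. The PTGES2 window lies at chr9:128128095-128128394 on the minus strand, is 1 of 3 windows of that gene, and has its match beginning 147 bases upstream of its start. Both sequences read 5′ to 3′ in the direction of the gene.
PTGES: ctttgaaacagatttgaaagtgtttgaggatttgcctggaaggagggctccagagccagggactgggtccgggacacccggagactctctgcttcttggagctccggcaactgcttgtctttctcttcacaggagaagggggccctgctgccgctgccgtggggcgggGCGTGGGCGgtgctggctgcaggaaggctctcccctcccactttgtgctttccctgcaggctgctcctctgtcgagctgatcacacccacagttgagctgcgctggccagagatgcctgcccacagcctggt
PTGES2: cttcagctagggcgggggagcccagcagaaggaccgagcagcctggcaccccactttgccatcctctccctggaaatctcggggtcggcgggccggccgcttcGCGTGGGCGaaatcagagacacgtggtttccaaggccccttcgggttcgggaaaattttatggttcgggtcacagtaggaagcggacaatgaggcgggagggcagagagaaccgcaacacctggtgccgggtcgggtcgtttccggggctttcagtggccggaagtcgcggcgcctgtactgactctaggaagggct

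The PTGES window also held 2 matches to the GC box GGGCGG, of which 1 overlapped the EGR1 consensus; the PTGES2 window held 1, which did not overlap it. GC boxes are common, being present in 45.0% of all windows. A match describes the letters in the window and is not evidence of binding in these cells, which was not measured here.

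No member differed by 1.5-fold or more between the EGR1 array and the empty-vector array by its brightest probe set. Levels are log2 values, a difference is the EGR1 array minus the empty-vector array, and the brightest probe set of a gene is the one with the highest mean of both arrays. Of the 8 genes, PTGS1, PTGES, PTGES2 and PTGES3 lay past a floor on signal set at the 40th percentile of all probe sets (5.22), and PTGS2, HPGD, ALOX5 and PLA2G4A lay under it. Of the 18132 genes represented, 12652 lay past the floor. Past it 0 of 4 members were 1.5-fold or more higher and 0 of 4 lower, beside 0.941% and 0.229% of those 12652 genes. All 4 differences, from -0.08 to 0.10, lay inside the middle 50% of those genes (-0.12 to 0.10). With 1 array per group there was no replicate error and no test, so the values below describe these arrays and do not show that EGR1 leaves the genes alone.

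The plasmid gene itself was clearly higher in the EGR1 array by 2 of its 6 probe sets. EGR1 read 11.43 against 7.70 in probe set 11717861_a_at, a 13.3-fold difference, and 9.92 against 7.17 in 11751643_x_at. The 4 others were already bright with the empty vector, at 9.70 to 10.51, and had log2 differences from -0.39 to -0.20. They include the brightest, 11717860_a_at (10.51 with the empty vector and 10.12 with EGR1), so by the brightest probe set EGR1 was lower. The cause of this split was not tested. Of the markers of the line, the mesenchymal filament gene VIM was bright (13.73 with the empty vector and 13.66 with EGR1), whereas the epithelial genes EPCAM and CDH1 lay under the floor. CDH2, another listed marker of the line, read 8.41 and 8.49. The lung epithelial genes NAPSA (6.67 and 6.88), SFTPC (6.41 and 6.27) and NKX2-1 (6.08 and 6.38) lay past the floor by their brightest probe sets. For SFTPC 4 of 7 probe sets did so and for NKX2-1 1 of 2. The floor is a percentile and not a detection limit, so a place past it does not show that a gene was expressed. By their brightest probe sets, 12652 of all 18132 genes lay past the floor. Of 12 leukocyte markers measured 4 lay past the floor, namely CD68 (8.24 with the empty vector and 8.36 with EGR1), TYROBP (6.66 and 6.72), CSF1R (5.25 and 5.48) and CD3E (5.18 and 5.49), and these 4 differed by 0.06 to 0.30. The pan-leukocyte gene PTPRC read 2.95 and 2.80, and the summed log2 level of the 12 was 58.72 and 59.20. Of 7 fibroblast markers 1 lay past the floor and of 5 endothelial markers 3, with summed levels of 31.17 and 31.09 and of 24.80 and 24.88. No marker of these 3 lists differed by 1.5-fold or more.

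PLA2G4A, the phospholipase that feeds both branches, had 1 probe set. It read 3.33 with the empty vector and 3.16 with EGR1. Both values were far under the floor, and the difference of -0.17 was the largest in size among the members by their brightest probe sets. The deposited values carry no detection call, so whether the transcript was present in either group cannot be read from them.

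Both cyclooxygenases were dim. PTGS1, the constitutive form, had 4 probe sets, of which 11749730_a_at was just past the floor at 5.38 with the empty vector and 5.45 with EGR1 (difference 0.07, or 1.05-fold). Its other probe sets read 4.25 and 4.23, 4.06 and 3.97, and 3.69 in both arrays. The direction was therefore not shared among the probe sets of PTGS1, with 1 above 0, 2 below 0 and 1 at 0, and they averaged -0.0088 (SD 0.062, 4 probe sets).

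PTGS2, the inducible cyclooxygenase and itself an immediate-early gene, stayed under the floor in all 3 probe sets. With the empty vector first, they read 3.70 and 3.77, 3.66 and 3.49, and 3.15 and 2.72. The brightest was thus 0.07 higher in the EGR1 array and the dimmest 0.43 lower, and the mean difference of the 3 was -0.17 (SD 0.25). Over 4311 genes with several probe sets under the floor the SD within a gene, pooled, was 0.21, so the disagreement among the PTGS2 probe sets was close to that usual at such levels.

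PTGES, the inducible microsomal prostaglandin E synthase and the member with the strict consensus nearest its start, was clearly above the floor. Probe set 11747186_a_at read 7.47 with the empty vector and 7.57 with EGR1, and 11747187_x_at read 7.05 and 7.23. The third, 11754526_a_at, read 6.01 in both, identical to the last digit deposited. The differences were thus 0.10, 0.17 and 0, and averaged 0.09 (SD 0.09, 3 probe sets). The first corresponds to a 1.07-fold higher level, and 54.6% of all genes past the floor had a larger absolute difference than this one. The difference of 0.10 was smaller than the SD within a gene past the floor, 0.15 when pooled over 7113 genes, and that of 11747187_x_at was larger. Pooled over the 3 members with several probe sets past the floor, the SD was 0.05. Such an SD is the spread between probe sets of a gene and leaves out error between cultures and arrays.

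PTGES2, a second membrane-bound prostaglandin E synthase, read 9.06 with the empty vector and 9.12 with EGR1 by its brighter probe set and 7.26 and 7.27 by the other. The differences were 0.06 and 0.0094. Both were slightly above 0, and 70.1% of genes past the floor differed by more in absolute size.

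PTGES3 encodes p23, a co-chaperone of HSP90 also described as a cytosolic prostaglandin E synthase. It was the brightest member, and its 4 probe sets were each lower in the EGR1 array. They read 12.94 and 12.86, 12.49 and 12.37, 12.49 and 12.38, and 11.04 and 10.94, with the empty-vector array first. The differences ran from -0.11 to -0.08 with a mean of -0.10 (SD 0.013), equal to 1.06-fold lower by the brightest probe set. The 4 probe sets may not be independent: 3 are of the _x_at type and the other of the _s_at type, which can bind related transcripts such as the pseudogenes of PTGES3.

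HPGD, the enzyme that inactivates prostaglandins, had 8 probe sets, all under the floor. Its brightest, 11753601_x_at, read 4.63 with the empty vector and 4.70 with EGR1. The others lay between 2.02 and 3.35, with 5 of the 8 differences above 0, 2 below 0 and 1 at 0. Probe set 11741499_x_at stood apart from them at 2.56 and 3.35, a difference of 0.79 or 1.73-fold, and was the 1 member probe set beyond 1.5-fold. It was 1 of 17 member probe sets under the floor, where 1.59% of all 19745 probe sets were 1.5-fold or more apart in either direction. The remaining 7 HPGD probe sets differed by between -0.14 and 0.19, so they did not share that difference.

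ALOX5, the leukotriene-forming lipoxygenase and the other known EGR1 target, was under the floor in both of its probe sets. With the empty vector first, they read 4.20 and 4.13, and 2.62 and 2.69. The differences of -0.07 and 0.06 had opposite signs, and their mean was -0.0057. Neither known target thus reached 1.5-fold in these arrays, PTGES with signal past the floor and ALOX5 with signal under it.

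**Figure D1:**
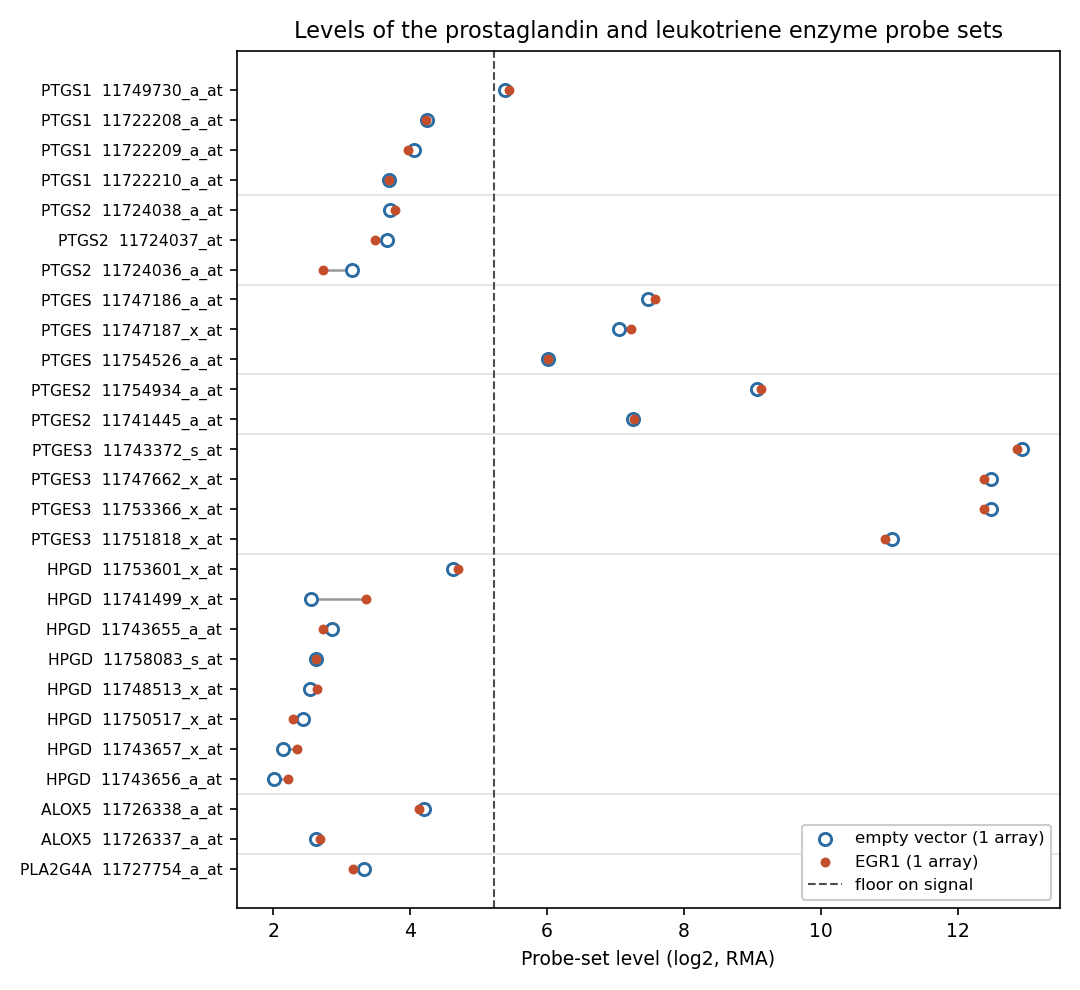
Each row is 1 of the 27 member probe sets, and the horizontal axis is its deposited level (log2, RMA); open blue circles are the empty-vector array, red points the EGR1 array, and the dashed line the floor of 5.22. The points of a row nearly coincide in the 10 probe sets past the floor, and the widest gaps are those of 11741499_x_at for HPGD (2.56 and 3.35) and 11724036_a_at for PTGS2 (3.15 and 2.72).

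Over all members the signs were balanced. Of the 27 probe sets 12 were above 0, 12 below 0 and 3 at 0. The 10 past the floor ran from -0.11 to 0.17, with a median absolute difference of 0.09 beside 0.12 for all probe sets past the floor. The 17 under it ran from -0.43 to 0.79, with a median absolute difference of 0.10 beside 0.14 for all probe sets under it. The median over the 8 genes by their brightest probe sets was 0.07, beside 0 for all genes represented.

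**Figure D2:**
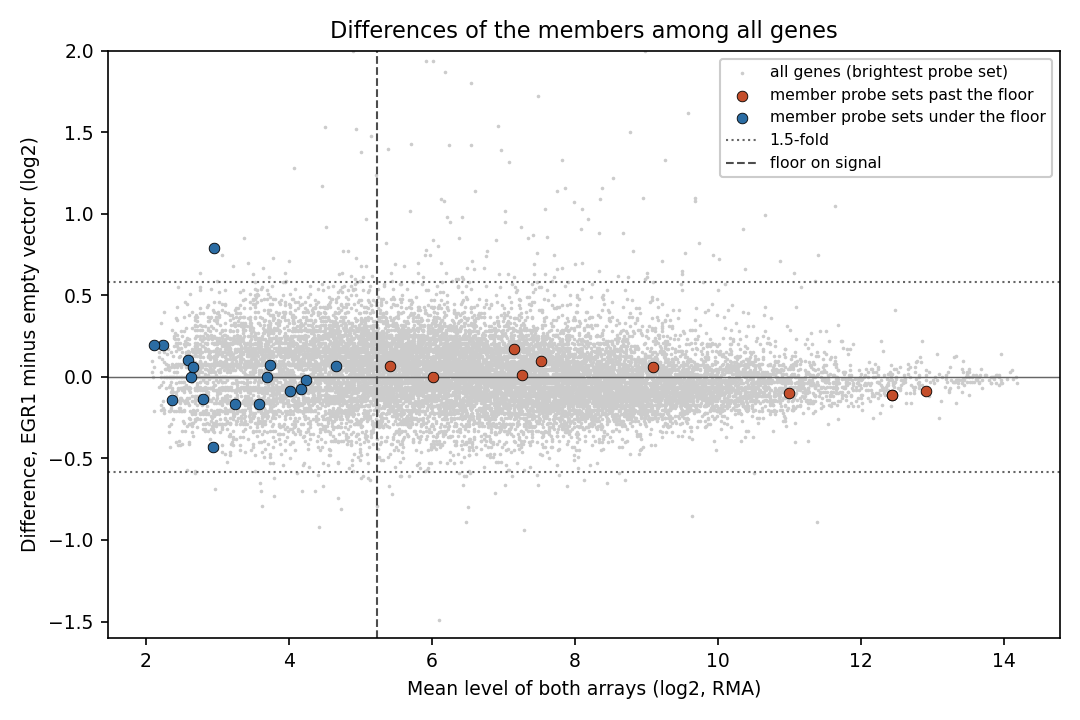
The vertical axis is the difference between the arrays (log2, EGR1 minus empty vector) and the horizontal axis the mean level of both (log2, RMA); grey points are all genes by their brightest probe set (8 lie beyond the vertical range), and coloured points are the 27 member probe sets. Every member probe set past the floor (red, right of the dashed line) lies between -0.11 and 0.17, inside the dotted lines at 1.5-fold, and 1 under the floor (blue), of HPGD, lies above them at 0.79.

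Genes with the EGR1 consensus in a promoter window gave a frame for PTGES and PTGES2. Of 1954 genes past the floor with GCGNGGGCG, 1.28% were 1.5-fold or more higher, and of 8358 with a window but without it 0.766% were. By 1.5-fold or more 2 of the 1954 and 25 of the 8358 were lower. The medians were 0.01 and -0.03. PTGES (0.10) and PTGES2 (0.06) lay inside the middle 50% of the genes with the consensus, which ran from -0.09 to 0.13. Of 173 genes past the floor with the strict form, median 0.04, 1 was 1.5-fold or more higher and 0 were lower. The higher gene was SNAPC2, at 0.60, named after its value was seen. These shares are descriptions without a test, and the part of base composition in them was not tested.

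The rest of the eicosanoid pathway likewise held no gene at 1.5-fold. Of 64 pathway genes listed by role, members included, 61 were represented and 39 lay past the floor, and 0 of the 39 were 1.5-fold or more higher or lower, beside the 0.941% and 0.229% of all genes given above. Their median over the 61 was 0.06, with 35 above 0, 24 below 0 and 2 at 0. Past the floor 22 were above 0 and 17 below, beside 44.6% and 52.8% of all genes past the floor. Only ANXA1 and PLA2G15, 2 of 39 (5.13%), lay outside the middle 95% of genes past the floor (-0.35 to 0.40).

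In arachidonate release, where PLA2G4A lay under the floor, annexin A1 (ANXA1), a protein known to restrain phospholipase activity, read 11.28 with the empty vector and 10.88 with EGR1, or 1.32-fold lower. Its 4 probe sets past the floor shared the direction, from -0.47 to -0.40, and the fifth, under the floor, differed by 0.16. The lysosomal phospholipase PLA2G15 read 5.91 and 6.33 (difference 0.42), but its other probe set differed by -0.05. The calcium-independent phospholipase PLA2G6 differed by 0.21, and its 3 probe sets past the floor ran from -0.04 to 0.27. The median of this role over 14 genes was -0.04.

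The other terminal synthases past the floor also stayed under 1.5-fold. PRXL2B, a prostamide and prostaglandin F synthase, differed by 0.15 with both probe sets above 0, the thromboxane synthase TBXAS1 by 0.09 and the prostaglandin D synthase PTGDS by 0.04. The 3 TBXAS1 probe sets past the floor went both ways, from -0.17 to 0.21. The median over the 10 genes of this role was 0.05.

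Beside HPGD, the genes of prostaglandin breakdown and transport past the floor were lower in 4 of 5 cases by their brightest probe sets. Of all genes past the floor 52.8% were lower. The reductase PTGR2 read 7.68 with the empty vector and 7.39 with EGR1 (-0.29), and its other probe set differed by -0.07. The reductase PTGR3 read 7.34 and 7.13 (-0.22), with 5 of 6 probe sets below 0 and 1 at 0. The prostaglandin transporter SLCO2A1 differed by -0.11 in its brightest probe set and by 0.14 and 0.27 in the other 2 past the floor, so its direction was not settled. The exporter ABCC4 differed by -0.21 in its 1 probe set past the floor, and its probe sets under the floor went both ways, so that it read 0.14 without _x_at and _s_at probe sets. HPGD itself (0.07, under the floor) and PTGR1 (0.03) were on the other side of 0, and the role's median over 6 genes was -0.16.

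Beside ALOX5, the leukotriene branch had a median of 0.08 over 16 genes. Of the 10 past the floor 6 were above 0 and 4 below, beside 44.6% and 52.8% of all genes past the floor. COTL1, an actin-binding protein that also binds ALOX5, read 11.13 with the empty vector and 11.36 with EGR1, and its 3 probe sets differed by 0.16 to 0.23. DICER1, which makes microRNAs and also binds ALOX5, went the other way at 9.42 and 9.19 (-0.23), with 3 of its 4 probe sets below 0. The omega-hydroxylases CYP4F2 and CYP4F3, which break down leukotriene B, differed by 0.24 and 0.28 from levels of 5.74 and 5.45; both were represented by _x_at probe sets, and the genes are closely related in sequence, so the values may not be independent. Of the prostanoid receptors 5 of 6 past the floor were above 0, beside 44.6% of all genes past it, a small count without a test. The thromboxane receptor TBXA2R differed by 0.28, the prostacyclin receptor PTGIR by 0.26 and the prostaglandin E receptor PTGER4 by 0.14. The 3 TBXA2R probe sets past the floor ran from -0.02 to 0.33. The leukotriene B receptor LTB4R, the 1 leukotriene receptor past the floor, differed by 0.14.

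**Figure D3:**
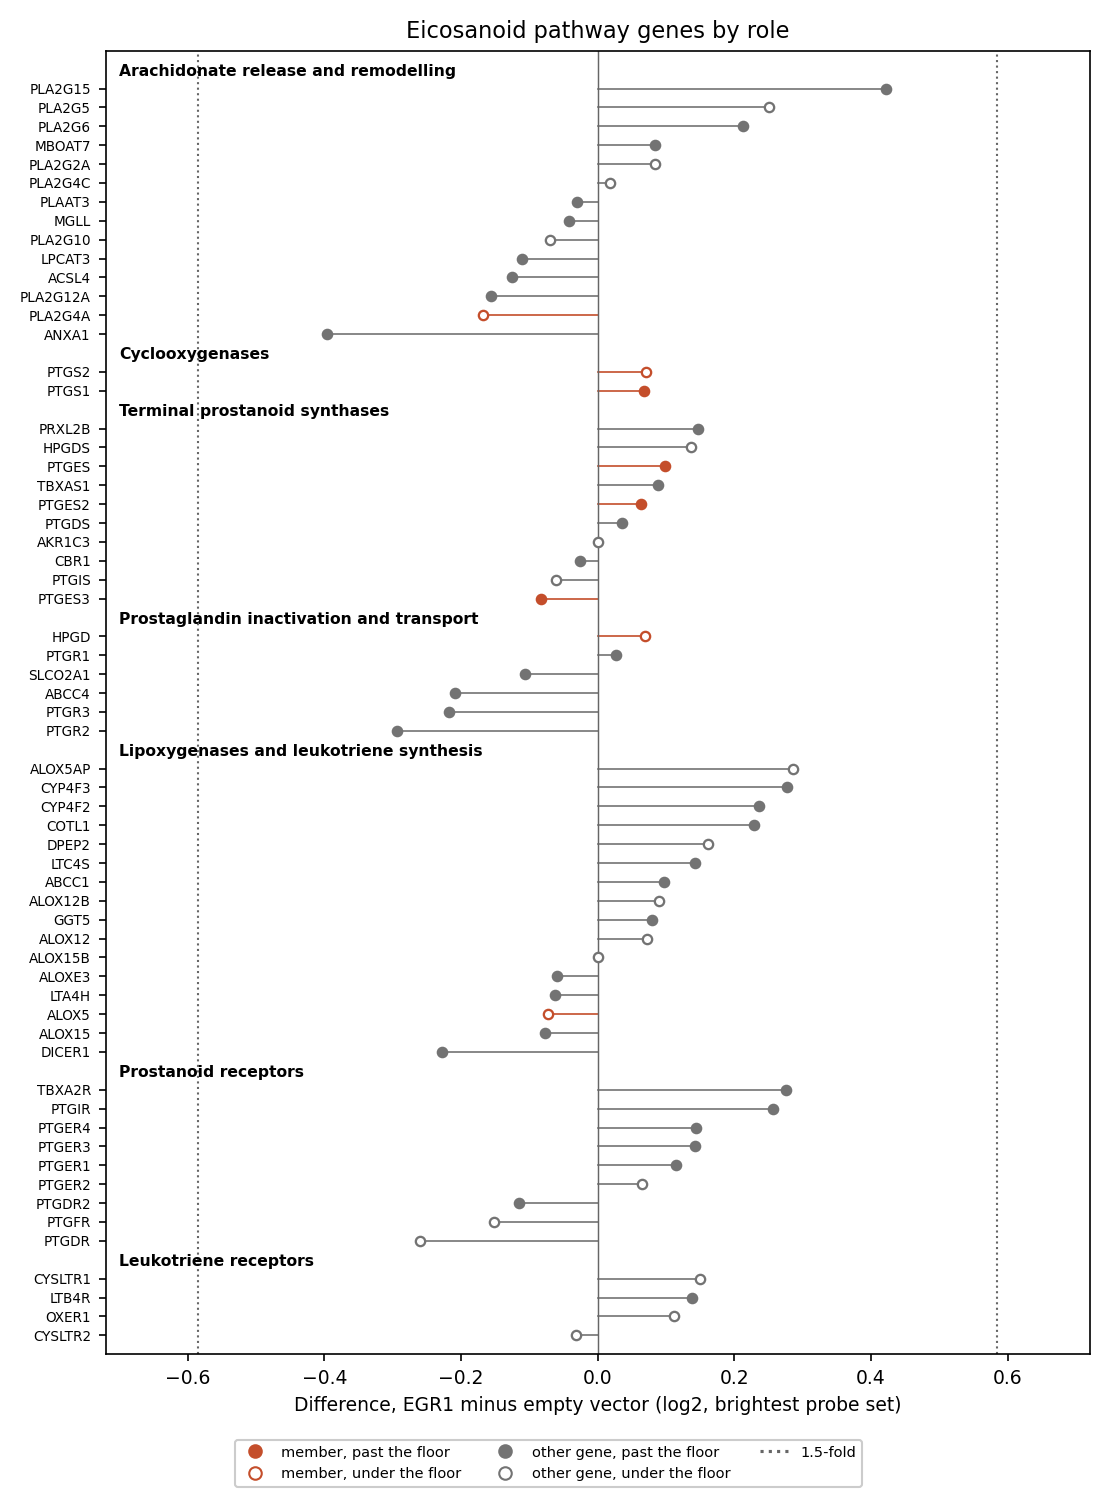
Each row is 1 of the 61 pathway genes, grouped by role, and the horizontal axis is the difference of its brightest probe set (log2, EGR1 minus empty vector); red marks the 8 members, filled points lie past the floor, open ones under it, and the dotted lines stand at 1.5-fold. No gene reaches the dotted lines, and the members lie between -0.17 and 0.10.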

How the data were processed

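Total RNA (2 µg per sample) was labelled with biotin and hybridised to Affymetrix arrays, per the labels' protocols, 1 array per group. The authors deposited RMA values on the log2 scale, 1 level per probe set; RMA corrects background, normalizes arrays and summarises probes, per the submitters' processing notes; its version and the genome build are not given in the sources. RMA evens the distributions of the arrays and gives no error or detection call per probe set, so the number of arrays limits the precision.

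Genes were assigned from the platform annotation and RefSeq gene symbols (44988 probe sets with 1 symbol, 44961 of them matched by Entrez ID). Probe sets without a single symbol, 1832 of them in the annotation, were not used. From the log2 values the difference, the brightest probe set per gene, a floor at the 40th percentile and counts at 1.5-fold were computed (Python 3.11.15, pandas 2.3.3, statsmodels 0.14.6). The procedure was tested on simulated data with less noise than the pooled SDs above and large changes in genes well past the floor. That test does not cover dim genes or small differences. Named beside the members were EGR1 and, per role list, the 3 further genes above the floor that differed most in absolute size (fewer where a list held fewer). PTGR1, SLCO2A1, DICER1, SNAPC2 and those named among the listed cell type markers lie outside this rule and were picked after their values were seen. Tied mean levels went to the first identifier. Promoter motifs were counted in RefSeq windows. The members and lists were chosen with earlier results of these data known. A total of 6 alternatives were tried.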

Additional observations from a re-analysis of the deposited data

How the results depend on the processing

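No member reached 1.5-fold under any of the 6 alternatives. The alternatives were the mean of all probe sets, no _x_at or _s_at probe sets, lowess correction, quantile normalization, no floor, and a 60th percentile floor. The changes of floor affect only which genes are counted, so no member's difference could move under them. Across the 6 alternatives the difference of PTGES ran from 0.09 to 0.14 and that of PTGES2 from 0.04 to 0.12. That of ALOX5 ran from -0.10 to -0.0057 and that of PLA2G4A from -0.19 to -0.17. PTGES3 ran from -0.10 to -0.06 over 5 alternatives and has no value without _x_at and _s_at probe sets. PTGS1 (-0.0088) and PTGS2 (-0.17) changed sign with the mean of all probe sets, and HPGD (-0.14) without _x_at and _s_at probe sets. By averaging all probe sets, the median of the members became -0.0073 and that of the wider pathway 0.041; the latter was also 0.041 after the lowess correction. The count of genes 1.5-fold or more lower, 29, became 16 by averaging all probe sets and 48 with no floor. The mean of all probe sets gave 0.19 for PLA2G15 and 0.11 for TBXA2R. The causes of these shifts were not tested. Limits include 1 array per group and dim signal, since 17 of the 27 member probe sets lay under the floor.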

Other observations

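Some deposited values recur exactly. In 3 of the 27 member probe sets (11.1%), 1 each of PTGS1, PTGES and HPGD, both arrays held the same value, beside 5.29% of all probe sets, 2.87% of those past the floor and 8.93% of those under it. In the EGR1 array 9 member probe sets (33.3%) held a value that at least 1 other probe set of that array also held. In the empty-vector array 8 (29.6%) did. Over all probe sets the shares were 17.9% and 17.6%. They were 22.8% and 22.3% for those under the floor and 14.7% and 14.5% for those past it. The HPGD probe sets 11743656_a_at and 11743657_x_at read 2.02 and 2.15 with the empty vector and 2.21 and 2.34 with EGR1, and both differed by 0.19.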
